A study of Mus musculus with 5 samples.

Results

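The immediate-early and activation feedback genes Egr1, Jun, Junb, Zfp36, Dusp2 and Rgs2 were described in single CD3+ cells sorted from mouse brain after stroke. They were chosen by symbol, and all 6 had a row among the 2926 mouse genes of the deposited table. All mice were wildtype C57BL/6, and the cells came from the stroke-side hemisphere 14 days after photothrombosis, in which light on a circulating dye closes cortical vessels and leaves a focal infarct. Trained mice (3 samples of 66 to 168 cells) had access to running wheels from day 2 after the stroke. Untrained mice (2 samples, 144 and 190 cells) had the same stroke and no wheel training. Each sample was read by SORT-seq from a 384-well plate in which a well holds 1 sorted cell, and 692 cells were present in the deposited table. The labels do not say whether samples came from separate mice or pools, so the spread behind each p-value is that between samples and may be technical.

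Immediate-early genes are transcribed within minutes of a signal without new protein synthesis, and in T cells antigen receptor signalling through the ERK pathway is a classic trigger. Egr1 encodes a zinc finger transcription factor, and Jun and Junb encode leucine zipper subunits of the AP-1 transcription factor. The other 3 act as brakes: Dusp2 encodes a nuclear phosphatase of MAP kinases first known from activated lymphocytes, Rgs2 encodes a GTPase activator that shortens Gq signalling, and Zfp36 encodes tristetraprolin, which binds AU-rich elements and speeds decay of mRNAs such as that of Tnf. The same genes also respond to signals in microglia and macrophages and to handling of cells during tissue dissociation.

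Signals reach such genes through short promoter elements, and RefSeq (GRCm38.p6) gave the 250 bases before the start site for 5 of them, all but Egr1. The promoters of Rgs2, Dusp2 and Zfp36 are shown because each holds a match to the EGR site GCGNGGGCG, the sequence that EGR factors bind; it is given in capitals, and in Zfp36 so is a match to the CArG box, the sequence that SRF binds. They lie at chr1:144004150-144004399 (Rgs2, minus strand), chr2:127335909-127336158 (Dusp2, plus strand) and chr7:28379229-28379478 (Zfp36, minus strand), and read 5′ to 3′ toward the gene.
Rgs2: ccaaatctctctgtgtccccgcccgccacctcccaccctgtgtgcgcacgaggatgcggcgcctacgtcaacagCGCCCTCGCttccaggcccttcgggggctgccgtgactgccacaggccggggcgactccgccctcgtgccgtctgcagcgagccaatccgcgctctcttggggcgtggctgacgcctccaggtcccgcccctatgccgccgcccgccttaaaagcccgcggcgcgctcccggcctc
Dusp2: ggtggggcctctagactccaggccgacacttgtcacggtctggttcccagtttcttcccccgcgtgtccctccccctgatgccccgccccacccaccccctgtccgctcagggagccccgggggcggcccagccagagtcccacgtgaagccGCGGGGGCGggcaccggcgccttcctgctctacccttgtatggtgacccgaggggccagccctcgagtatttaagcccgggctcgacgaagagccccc
Zfp36: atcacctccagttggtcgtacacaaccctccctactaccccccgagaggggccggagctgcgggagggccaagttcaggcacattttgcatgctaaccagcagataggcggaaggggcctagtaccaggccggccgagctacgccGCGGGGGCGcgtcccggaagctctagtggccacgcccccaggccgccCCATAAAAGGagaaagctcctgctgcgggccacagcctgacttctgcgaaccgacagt
Both strands were searched. The 3′ end of the EGR site, as printed, lay 90 bases before the start in Dusp2, 97 in Zfp36 and 168 in Rgs2, where the match is on the opposite strand. It was present in 3 of the 5 member promoters and in 4.70% of 32851 mouse promoters of the same length. The CArG box was found in 1 of the 5, that of Zfp36 (58 to 49 bases before the start), and in 1.47% of all promoters. The AP-1 site TGANTCA and the cyclic AMP response element TGACGTCA were found in 0 of the 5 and in 6.75% and 1.55% of all. No listed motif overlaps another in these promoters, and a match describes letters in this window, not a bound factor.

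Each value of the table is a score without a unit, not a count: the scores run from -2.12 to 3.74. A score of 0 need not be a gene's average in a sample. Egr1 and Zfp36 averaged below 0 in both cell classes defined below in every sample but untrained sample 2. A score above 0 is therefore a fixed cut, not a level above the gene's own average. The mean over all cells and genes was near 0 within each sample (-0.022 to -0.013). In untrained sample 2, 1632 rows averaged 0 over its cells, none of them a member. Where a gene averages near 0 in a sample, a higher mean in some of its cells goes with a lower mean in the rest. Differences below are differences of scores, and ranks among genes take no account of a gene's spread. Depth is unknown. The form of the scores leaves it possible that they were scaled or integrated across batches. Cells were split by the mean score of 7 T cell markers (Cd3e, Cd3d, Cd3g, Cd2, Lck, Cd247 and Thy1). T marker-positive cells had a mean above 0 and numbered 37, 70 and 90 in trained samples and 78 and 70 in untrained samples. The remaining cells numbered 29, 54 and 78 in trained samples and 66 and 120 in untrained samples. Although all were sorted as CD3+, only 49.9% of the 692 cells were thus T marker-positive. Of these 36.2% lay between 0 and 0.25, and 33.7% of the remaining cells lay between -0.25 and 0. The class is therefore a range of a score, not a cell type. The mean over all genes also differed between the classes, at 0.065 to 0.123 per sample in T marker-positive cells and -0.148 to -0.105 in remaining cells. A dissociation stress list (7 of 10 genes measured) moved alike, at 0.178 to 0.261 and -0.285 to -0.173. The mean of the 41 spike-ins went the other way in every sample, at -0.063 to 0.034 and 0.031 to 0.141. The part of any of these in the results was not tested.

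Untrained sample 2 stood apart. It held 41 of the 51 cells with a mean above 1 for 7 myeloid genes (Cst3, Ctss, Ctsd, Ctsb, C1qb, Tyrobp and Apoe), against 3, 4 and 3 in trained samples and 0 in untrained sample 1. These cells are called myeloid-high here, and 3 of them were T marker-positive. Its scores were cut off at 2.52. Of the fixed myeloid list 8 of 20 genes were measured, with a mean level over the list of -0.497 to -0.0058 in T marker-positive cells and -0.214 to 0.343 in remaining cells, the highest in untrained sample 2. For B cells, neutrophils, astrocytes and endothelium no listed marker was measured. For NK cells 3 of 6 were, with levels of 0.143 to 0.413 in T marker-positive cells and -0.332 to -0.167 in remaining cells. For oligodendrocytes 2 of 7 were, with levels of 0.150 to 0.312 and -0.238 to -0.189.

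Dusp2 was the member that marked the T marker-positive cells. Its mean score in T marker-positive cells was 0.185, 0.338 and 0.275 in trained samples and 0.124 and 0.417 in untrained samples. In remaining cells it was -0.309, -0.227 and -0.218 in trained samples and -0.154 and -0.354 in untrained samples. The T marker-positive mean was above 0 and the remaining mean below 0 in every sample, so that Dusp2 was higher in 5 of 5 samples, as were 79.1% of genes. The difference was 0.520 ± 0.058 (SE, 5 samples; limma, adjusted p = 2.4e-05). A score above 0 was found for Dusp2 in 50.7% of T marker-positive cells and 11.8% of remaining cells, and a score above 1 in 18.3% and 2.59%.

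Junb also rose in T marker-positive cells. Its mean there was -0.014, 0.014 and 0.045 in trained samples and 0.080 and -0.059 in untrained samples, and in remaining cells -0.173, -0.322 and -0.326 in trained samples and -0.211 and 0.003 in untrained samples. It was higher in 4 of 5 samples; the exception was untrained sample 2. The difference was 0.219 ± 0.058 (limma, adjusted p = 0.0049). Both results stand against a background in which most genes moved the same way: 88.8% of 2919 genes passed the test, 83.2% as higher and 5.55% as lower, and the median difference of all genes was 0.203. With 2 of 6 members called, the group lay below that background. Dusp2 exceeded 93.8% of genes in this difference and Junb 54.4%. With each cell's mean over all genes subtracted, Dusp2 stayed higher (0.311, limma adjusted p = 0.0010) and Junb was at 0.010 (limma adjusted p = 0.898). There 49.4% of genes were called and the median of all genes was -0.0054.

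The other 4 members did not pass the test. Jun, the AP-1 subunit most closely tied to JNK signalling, had means of 0.0054, -0.031 and 0.013 (trained) and -0.067 and -0.256 (untrained) in T marker-positive cells, and -0.072, -0.198 and -0.191 (trained) and -0.140 and 0.097 (untrained) in remaining cells. Egr1 had means of -0.210, -0.137 and -0.096 (trained) and -0.043 and -0.394 (untrained) in T marker-positive cells, and -0.109, -0.298 and -0.348 (trained) and -0.234 and 0.138 (untrained) in remaining cells. In both genes untrained sample 2 was the lowest of the 5 samples among T marker-positive cells and the highest among remaining cells. Rgs2 had means of -0.090, -0.066 and -0.018 (trained) and 0.051 and -0.321 (untrained) in T marker-positive cells, and -0.086, -0.274 and -0.209 (trained) and -0.122 and 0.208 (untrained) in remaining cells. Zfp36 had means of -0.177, -0.162 and -0.022 (trained) and -0.147 and -0.361 (untrained) in T marker-positive cells, and -0.144, -0.230 and -0.253 (trained) and -0.181 and 0.204 (untrained) in remaining cells. Untrained sample 2 was again the extreme sample in each class, and its class means are not separate observations. The classes overlapped for all 4 genes. Their differences between the classes were 0.034 ± 0.070 for Jun, -0.0060 ± 0.097 for Egr1, 0.0082 ± 0.094 for Rgs2 and -0.053 ± 0.091 for Zfp36, with limma adjusted p between 0.589 and 0.953. Between 6.20% (Zfp36) and 10.6% (Jun) of genes lay below them.

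**Figure D1:**
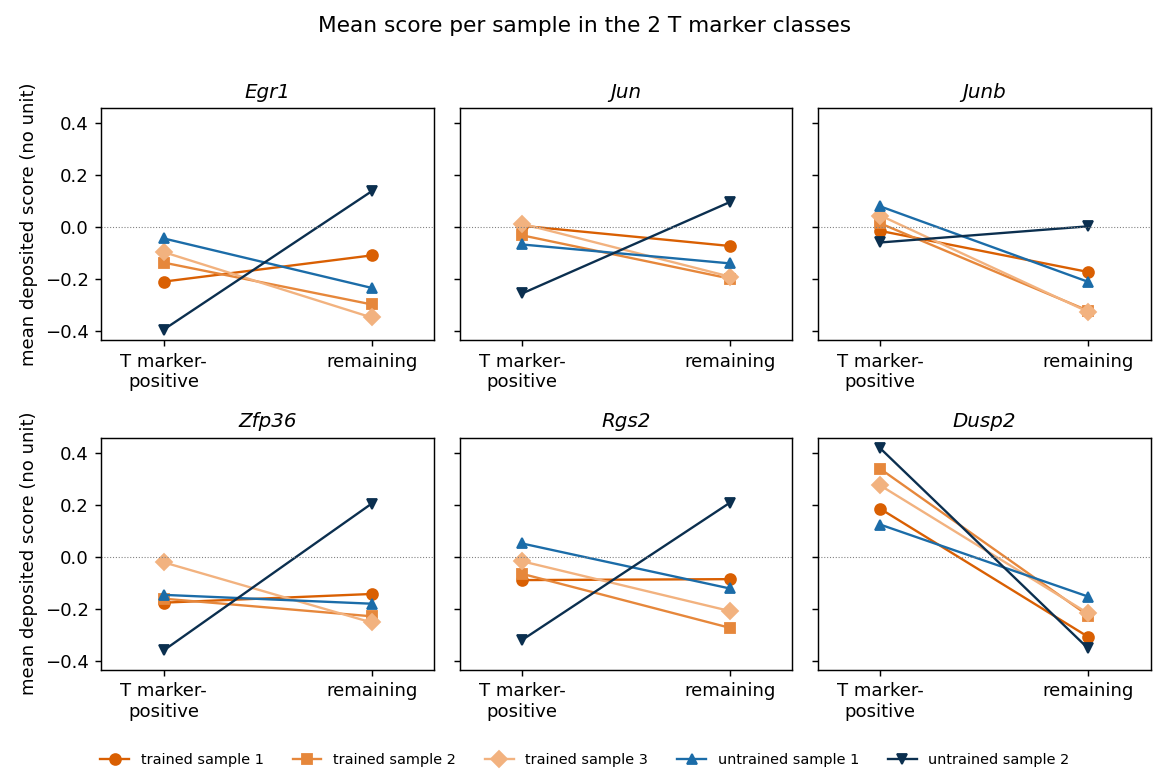
Mean deposited score (vertical axis, no unit) of each member in T marker-positive and remaining cells, with 1 line per sample. Dusp2 lies higher on the T marker-positive side in all 5 samples, while untrained sample 2 lies lower on that side for the other 5 genes.

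These 4 differences changed without the myeloid-high cells and also without untrained sample 2. As 41 of the 51 such cells came from that sample, cells and sample cannot be told apart. Over the 51 myeloid-high cells the mean scores were 1.27 for Zfp36, 1.22 for Egr1, 1.21 for Rgs2, 0.827 for Junb and 0.819 for Jun, and -0.399 for Dusp2. A score above 1 was found in 30 of them for Zfp36, 28 for Rgs2, 26 for Egr1, 21 for Jun, 20 for Junb and 0 for Dusp2. These means pool the libraries, which were not alike: for Egr1 the 3 such cells of trained sample 1 averaged 1.81, the 4 of trained sample 2 averaged 0.472, the 3 of trained sample 3 averaged 0.148, and the 41 of untrained sample 2 averaged 1.33. Junb averaged 1.32, -0.114 and -0.049 in these cells of trained samples 1, 2 and 3 and 0.947 in those of untrained sample 2. Jun averaged 1.14, 0.081 and -0.017 in trained samples and 0.929 in untrained sample 2. High means of Junb and Jun were thus found in trained sample 1 and untrained sample 2, and not in the few such cells of trained samples 2 and 3. Zfp36 averaged 1.56, 0.963 and 0.244 in trained samples and 1.35 in untrained sample 2. Rgs2 averaged 1.67, 0.650 and 0.120 in trained samples and 1.31 in untrained sample 2. Of the cells above 1, 25 of 30 for Zfp36 and 24 of 28 for Rgs2 were from untrained sample 2, and none were from trained sample 3. Without the myeloid-high cells all 6 members were called higher in T marker-positive cells. Egr1 was then at 0.175, Rgs2 at 0.177, Jun at 0.154 and Zfp36 at 0.121 (limma adjusted p between 0.00074 and 0.012), with Junb at 0.357 and Dusp2 at 0.512. In that fit 94.2% of genes were called and the median of all genes was 0.229, so Egr1, Rgs2, Jun and Zfp36 lay below the median gene. Without untrained sample 2 as a whole 5 members were called, with values of 0.126 for Egr1, 0.130 for Jun, 0.142 for Rgs2, 0.289 for Junb and 0.457 for Dusp2, against 92.1% of genes. Zfp36 was at 0.075 there (limma adjusted p = 0.105). With each cell's mean subtracted, Zfp36 was lower in T marker-positive cells (-0.262, limma adjusted p = 0.043).

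**Figure D2:**
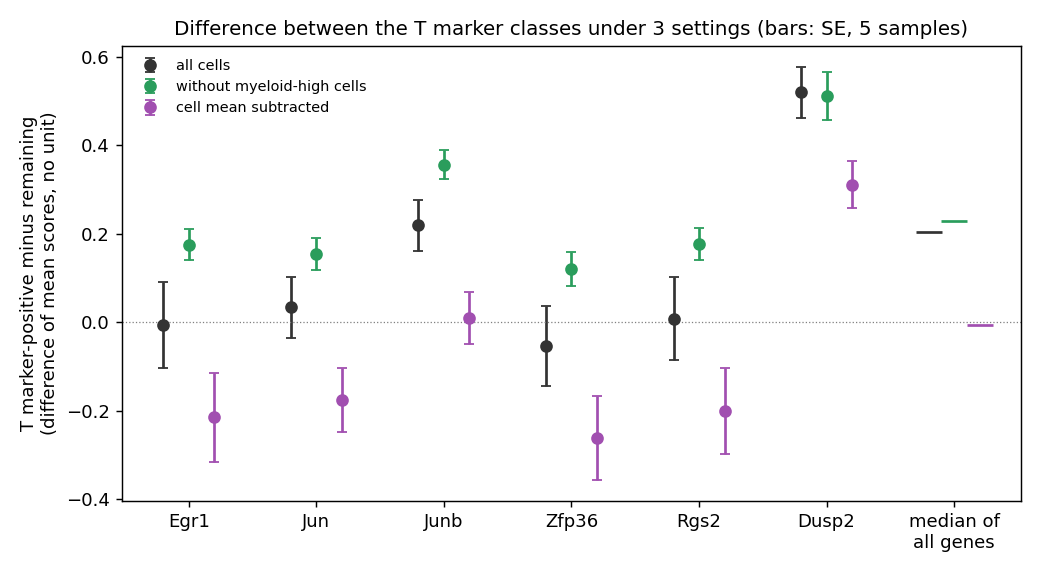
Difference of mean score between T marker-positive and remaining cells (vertical axis, no unit; bars, SE over 5 samples) with all cells, without the 51 myeloid-high cells, and with each cell's mean over all genes subtracted; the dashes at the right give the median of all genes. Dusp2 lay above the median gene under all 3 settings, and Egr1, Jun, Zfp36 and Rgs2 lay below it.

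Within the remaining cells, scores of Egr1, Jun, Junb, Zfp36 and Rgs2 correlated with each other more closely than with Dusp2. Correlations are given as descriptions: they are means of the Pearson r across the cells of each of 5 samples, and cells of a sample share a library. Over the 10 pairs among these 5 genes the mean r was 0.088 (0.031 to 0.140) in T marker-positive cells and 0.527 (0.441 to 0.611) in remaining cells. The closest pairs in remaining cells were Egr1 with Zfp36 (0.61, from 0.24 to 0.96 between samples) and Zfp36 with Rgs2 (0.61, from 0.27 to 0.88). All 10 pairs were positive in all 5 samples there. The 5 pairs with Dusp2 had a mean r of 0.021 in T marker-positive cells and 0.067 in remaining cells. In remaining cells without the myeloid-high ones the mean over the 10 pairs was 0.355 (0.251 to 0.422 over pairs). That over the 5 pairs with Dusp2 was 0.160 (0.078 to 0.25 over pairs). Between samples these means ran from 0.133 to 0.687 and from 0.032 to 0.261. In these cells Junb with Dusp2 was at 0.25 and Rgs2 with Dusp2 at 0.23, and both were highest in untrained sample 1 (0.51 and 0.52). In untrained sample 2 the ranges overlapped, at 0.052 to 0.28 for the 10 pairs and -0.050 to 0.47 for the 5 pairs with Dusp2. With each cell's mean subtracted, the 10 pairs averaged 0.427 in remaining cells and the 5 pairs with Dusp2 -0.108.

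**Figure D3:**
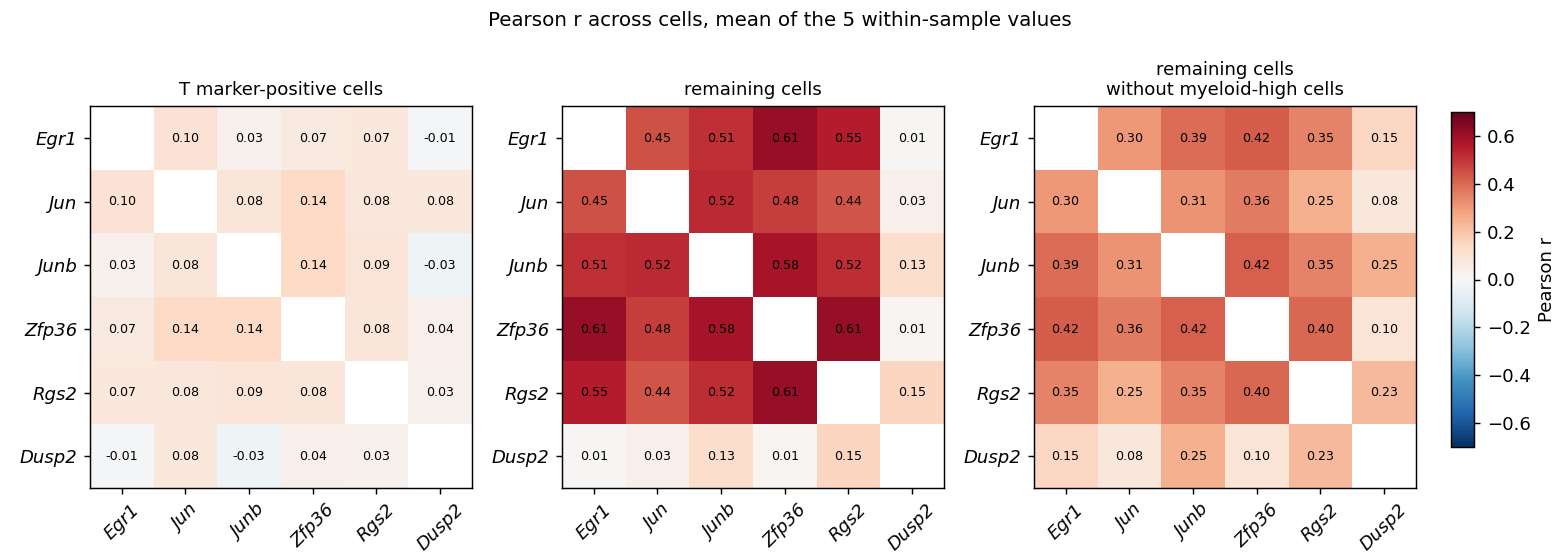
Pearson r between members across cells, as the mean of 5 within-sample values, in T marker-positive cells, remaining cells, and remaining cells without the myeloid-high ones (colour and printed number). Pairs without Dusp2 reach 0.61 in remaining cells and 0.14 in T marker-positive cells.

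The 5 genes varied with the myeloid score and also with the mean over all genes. In remaining cells the within-sample r with the mean of the 7 myeloid genes averaged 0.73 for Zfp36, 0.71 for Egr1, 0.68 for Rgs2, 0.61 for Junb and 0.53 for Jun, and 0.08 for Dusp2. With the mean over all genes, r was 0.53 to 0.62 for these 5 and 0.30 for Dusp2. In T marker-positive cells r with the myeloid score was 0.34 for Rgs2, 0.23 for Zfp36, 0.22 for Egr1, 0.13 for Junb, 0.08 for Jun and -0.08 for Dusp2. Among remaining cells that were not myeloid-high it was 0.55 for Egr1, 0.48 for Zfp36, 0.48 for Rgs2, 0.44 for Junb, 0.35 for Jun and 0.18 for Dusp2. In the same cells r with the mean over all genes was 0.41 to 0.52 for the 5 genes, higher than with the myeloid score for Junb (0.52) and Jun (0.41). With the T marker mean it was 0.33 to 0.41. With the mean of the spike-ins it was 0.17 (Jun) to 0.35 (Egr1), and above 0 in every sample. The relation there was thus not particular to the myeloid score or to mouse genes. With the spike-ins, r for the 5 genes was 0.03 to 0.15 in all remaining cells and -0.16 to -0.01 in T marker-positive cells. The source of the spike-in correlation was not tested. At least 4 of the 5 genes were above 0 in 28 T marker-positive cells (8.12%) and 43 remaining cells (12.4%). Of the 43, 26 were from untrained sample 2. Among remaining cells that were not myeloid-high, 11 (3.68%) had this pattern.

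**Figure D4:**
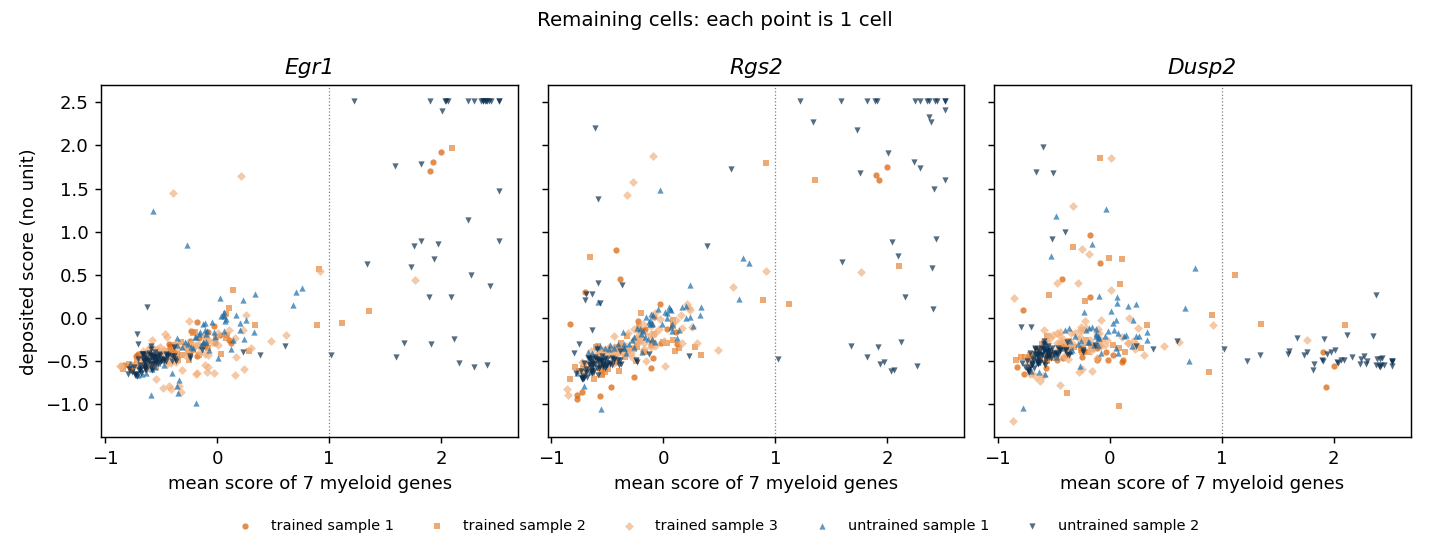
Scores of Egr1, Rgs2 and Dusp2 (vertical axes, no unit) against the mean score of 7 myeloid genes (horizontal axis) in the remaining cells, with 1 point per cell and the cut at 1 as a dotted line. Right of the line Egr1 and Rgs2 reach the cut-off of 2.52 in untrained sample 2, and Dusp2 has no cell above 1.

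The series asks whether training changed the T cells. In T marker-positive cells no gene passed the test for trained against untrained samples (0 of 2926 with limma, or 0%, with 50 at an unadjusted p under 0.05), so 0 of 6 members did. The member with the widest separation was Jun, at 0.0054, -0.031 and 0.013 in trained samples, against -0.067 and -0.256 in untrained samples. All trained samples lay above both untrained ones, as they did for 6.43% of genes. The difference was 0.157 ± 0.060 (limma, adjusted p = 0.998). Zfp36 differed by 0.134 ± 0.074, Rgs2 by 0.077 ± 0.095, Egr1 by 0.071 ± 0.093, Junb by 0.0045 ± 0.053 and Dusp2 by -0.0048 ± 0.086, and in these 5 genes the groups overlapped. For Dusp2 the 95% interval of the difference ran from -0.202 to 0.193. Only 7 of 2926 genes had a larger difference than Jun and 16 a larger one than Zfp36. The median difference was 0.074 over the members and -0.012 over all genes. With scores divided by their SD these medians were 0.017 and -0.006. The member differences rest on untrained sample 2, the lowest sample for Jun, Zfp36, Egr1 and Rgs2 in this class. Without it Jun was at 0.062 and Zfp36 at 0.027, and Egr1 (-0.104), Rgs2 (-0.109), Junb (-0.065) and Dusp2 (0.142) changed sign. Without untrained sample 1 the only untrained sample was untrained sample 2, which the fit assumes to vary like the trained ones. Then 145 genes (4.96%) were called, 0.854% as higher and 4.1% as lower, and Jun (0.251), Rgs2 (0.263) and Egr1 (0.247) were among the higher ones, with limma adjusted p of 0.023, 0.023 and 0.043.

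In the remaining cells, trained samples had lower scores for 5 members, again without a call. Class means within a sample are not independent. These differences, those in T marker-positive cells and the interaction below are therefore not separate observations. The difference was -0.233 ± 0.089 for Rgs2, -0.221 ± 0.094 for Zfp36, -0.204 ± 0.104 for Egr1, -0.170 ± 0.068 for Junb and -0.132 ± 0.068 for Jun, with limma adjusted p between 0.348 and 0.409. For Dusp2 it was 0.0023 ± 0.058 (limma adjusted p = 0.990). No gene passed in this comparison either (0%; limma), 386 had an unadjusted p under 0.05, and 27.9% of genes lay lower in all trained samples than in both untrained ones, which none of the members did. Only 10 genes had a lower difference than Rgs2 and 12 a lower one than Zfp36. Without the myeloid-high cells the 6 differences lay between -0.038 and 0.028, and without untrained sample 2 they lay between -0.098 and -0.014. Without untrained sample 1, Zfp36 was called (-0.413, limma adjusted p = 0.023) among 9 genes (0.308%), and without trained sample 1 no member was among the 12 called.

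The interaction of training with the T marker class, fitted on within-sample differences, called 0 of 2919 genes (0%; limma; 73 at an unadjusted p under 0.05). It was 0.354 ± 0.157 for Zfp36, 0.310 ± 0.174 for Rgs2, 0.289 ± 0.115 for Jun, 0.275 ± 0.189 for Egr1, 0.175 ± 0.111 for Junb and -0.0071 ± 0.126 for Dusp2 (limma adjusted p at least 0.989). Without untrained sample 1, 4 members were called among 91 genes (3.12%): Rgs2 (0.661), Zfp36 (0.654), Egr1 (0.637) and Jun (0.502). Without untrained sample 2 these 4 were at -0.041, 0.055, -0.087 and 0.077.

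Counting cells rather than averaging scores gave no separation that the design could call. The share of cells with a score above 0 was compared in 12 two-sided exact permutation tests, each over the 10 ways to divide 5 samples into 3 and 2, which cannot give a p under 0.1. In remaining cells Egr1 was above 0 in 9.29% ± 2.52 of cells in trained samples and 24.0% ± 6.11 in untrained samples (SD, n = 3 and 2; exact permutation p = 0.1, adjusted 0.6). Zfp36 was above 0 in 17.5% ± 2.86 and 28.1% ± 9.75 (exact permutation p = 0.1, adjusted 0.6). The other 10 tests gave p of at least 0.2. Among remaining cells that were not myeloid-high, the groups overlapped for both genes. There Egr1 was above 0 in 0%, 7.84% and 5.19% of cells in trained samples and 19.7% and 1.27% in untrained samples. Zfp36 was above 0 in 7.69%, 9.80% and 19.5% in trained samples and 21.2% and 11.4% in untrained samples. These shares were not tested. Dusp2 in T marker-positive cells was above 0 in 52.2% ± 3.53 of cells in trained samples and 47.6% ± 10.7 in untrained samples (exact permutation p = 0.6).

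T marker-positive cells were gated by coreceptor scores. CD8-gated cells scored above 0 for Cd8a and Cd8b1 on average but not for Cd4, and numbered 13, 26 and 29 in trained samples and 22 and 18 in untrained samples. CD4-gated cells were the reverse and numbered 11, 25 and 16 in trained samples and 23 and 18 in untrained samples. A further 51 cells were above 0 for both and 93 for neither. The mean of the 7 myeloid genes was -0.266, -0.129 and -0.102 (trained) and -0.104 and -0.548 (untrained) in CD8-gated cells. In CD4-gated cells it was -0.0007, -0.148 and 0.093 (trained) and 0.052 and -0.516 (untrained). It was thus higher in CD4-gated cells except in trained sample 2, and its part in the gate differences was not tested. No member passed the test between the gates, where 12 of 2916 genes did (0.412%, all higher in CD8-gated cells). Junb came closest. It averaged 0.047, -0.065 and -0.081 (trained) and -0.036 and -0.159 (untrained) in CD8-gated cells, against 0.063, -0.043 and 0.394 (trained) and 0.304 and 0.260 (untrained) in CD4-gated cells. It was lower in CD8-gated cells in 5 of 5 samples, as were 7.68% of genes, but by only 0.016 and 0.022 in trained samples 1 and 2. The difference was -0.254 ± 0.084 (limma, adjusted p = 0.188), and 55 genes had a lower one.

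Of the other members, Zfp36 differed by -0.180 ± 0.078 between the gates (limma adjusted p = 0.318) and was lower in CD8-gated cells in 4 of 5 samples. Egr1 differed by -0.112 ± 0.069 (limma adjusted p = 0.490) and was lower in 5 of 5. Rgs2 differed by -0.134 ± 0.096 and Jun by 0.032 ± 0.092, with samples on both sides of 0. Dusp2 had means of 0.559, 0.626 and 0.281 (trained) and 0.232 and 0.304 (untrained) in CD8-gated cells, and 0.048, 0.118 and 0.309 (trained) and 0.210 and 0.362 (untrained) in CD4-gated cells. The difference of 0.191 ± 0.096 (limma adjusted p = 0.395) came from trained samples 1 and 2, where it was 0.511 and 0.508, against -0.058 to 0.022 in the other 3 samples. The Dusp2 mean was above 0 in either gate of every sample. This did not hold for T marker-positive cells outside the gates. Cells above 0 for both coreceptors numbered 2 to 19 per sample, and their Dusp2 mean ran from -0.133 to 1.33 between samples. In cells above 0 for neither it ran from -0.043 to 0.329. Training was not tested in these cells.

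**Figure D5:**
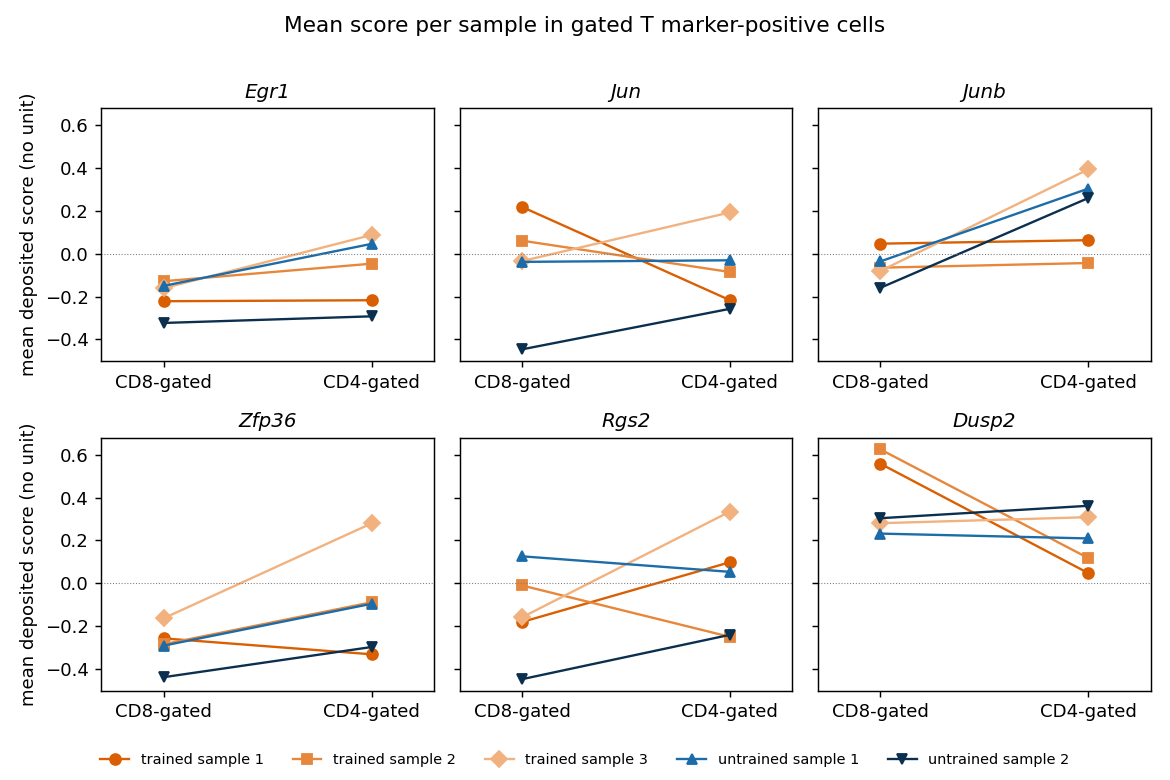
Mean deposited score (vertical axis, no unit) of each member in CD8-gated and CD4-gated T marker-positive cells, with 1 line per sample. Junb and Egr1 lie lower in CD8-gated cells in all 5 samples, and Dusp2 lies above 0 in every one.

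Within the gates no gene passed the test for training (0% in each; limma), with 4.68% of genes at an unadjusted p under 0.05 in CD8-gated cells and 2.49% in CD4-gated cells. In CD8-gated cells Jun averaged 0.219, 0.061 and -0.034 in trained samples, against -0.038 and -0.447 in untrained samples. The trained samples lay above the untrained ones by 0.324 ± 0.125 (limma, adjusted p = 0.867), with little space between the lowest trained (-0.034) and the highest untrained sample (-0.038). Zfp36 did not overlap either (0.130 ± 0.097, limma adjusted p = 0.867), in the same direction. In all 9.71% of genes lay above in this way. Dusp2 differed by 0.220 ± 0.112 in CD8-gated cells and by -0.128 ± 0.113 in CD4-gated cells. The difference between these, 0.348 ± 0.174, was the largest of the 6 members and did not pass (limma, adjusted p = 0.879), with 0 of 2916 genes called (0%; 4.63% at an unadjusted p under 0.05). Without untrained sample 1, Jun was called in CD8-gated cells (0.529, limma adjusted p = 0.018) among 5.78% of genes, 0.786% as higher, and without untrained sample 2 it was at 0.120.

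A wider list of immediate-early, MAP kinase feedback, RGS, NF-kappaB feedback and quiescence genes had 35 of its 72 genes in the table. In T marker-positive cells 28 of the 35 rose, 0 fell and 7 were not called (limma), close to the 83.2% of all genes that rose. Their median difference was 0.181, against 0.203 over all genes. Those with the smallest p were Btg1 (0.541) and Klf2 (0.417), which help to keep T cells quiescent, the kinase gene Pim1 (0.415), the transcription factor gene Klf6 (0.330), the phosphatase gene Dusp11 (0.420), the mRNA decay gene Zfp36l2 (0.345), the RGS gene Rgs3 (0.311) and the survival gene Mcl1 (0.308). Among the 7 was Fos, the AP-1 partner of Jun, at -0.088 ± 0.065 (limma adjusted p = 0.218), together with Pde4d, Dusp6, Rgs10, Btg2, Zfp36l1 and Ppp1r15a. Without the myeloid-high cells 33 rose and 1 fell, where 88.6% of all genes rose and 5.65% fell. With each cell's mean subtracted 7 rose and 5 fell, where 25.1% of all genes rose and 24.3% fell.

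Between the gates none of the 35 was called (limma), with 10 of 35 at an unadjusted p under 0.05, against 14.3% of all genes. Their median difference was -0.118, against -0.014 over all genes, and 8 of 35 were above 0, against 44.6% of all genes. Nfkbia, the inhibitor of NF-kappaB, was at -0.268 (limma adjusted p = 0.115), the AP-1 subunit gene Jund at -0.342 (0.131) and Zfp36l2 at -0.229 (0.188). For training none of the 35 was called in any class (limma). In T marker-positive cells the smallest p belonged to Btg2 (0.107), Rgs10 (0.140) and Myc (0.064). In CD8-gated cells it belonged to Tnfaip3 (0.224), Nfkbia (0.211) and Srf (-0.226), and in CD4-gated cells to Nab1 (-0.219), Btg1 (-0.276) and Rgs10 (0.184). In remaining cells the difference between trained and untrained samples was above 0 for 3 of 35, against 23.4% of all genes. The smallest p there belonged to Ier2 (-0.155, limma adjusted p = 0.312), Atf4 (-0.107) and Mcl1 (-0.105). Without the myeloid-high cells 12 of 35 were above 0, against 45.1% of all genes.

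The genes whose scores were most like each member across T marker-positive cells were ranked by the mean of the 5 within-sample r. For Dusp2 they were Ccdc47 (0.33), Sept6 (0.32) and Tnf (0.27, from 0.18 to 0.42 between samples). For Rgs2 they were Cst3 (0.28), C1qb (0.27) and Ctsb (0.26), all 3 on the myeloid list. For Junb they were Zmynd8 (0.37), Pnpla7 (0.25) and Ptprc (0.24), and for Jun Csf2ra (0.24), Nhp2 (0.21) and Herpud1 (0.21). For Egr1 they were Dock11 (0.31), Ergic3 (0.26) and Ilvbl (0.26), and for Zfp36 Rps6ka1 (0.24), Commd7 (0.21) and Prpf8 (0.21). No member was among the 3 genes most like another member, and the highest r between members in these cells was 0.14.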

How the data were processed

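Single CD3+ cells had been sorted after a 37% Percoll gradient and CD45 and CD3 staining, per the labels' protocols, and read by SORT-seq; Cell Ranger is named, with no version, in the submitters' processing notes. The sources used here state neither a genome build nor how values were normalised or integrated. The authors deposited a table named as counts whose values are scores (2967 rows, 2926 mouse genes and 41 spike-ins), with no whole reads, so depth per sample and the precision it gives are unknown. In untrained sample 2 the highest member score was 2.52 and 1632 rows had a mean of 0 within 1e-06. Cells were assigned to samples by the number in their names; 221 of 331 well names recur in more than 1 sample, as plates share well numbering. Doublets could not be called on scores, and no cell was left out.

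The mean score per sample and class was fitted over all genes with limma (3.58.1, R 4.3.3), two-sided, with Benjamini-Hochberg adjustment and a threshold of 0.05, in 8 comparisons. Sample was a block between classes; interactions were fitted on within-sample differences. The 7 T cell markers were left out of the class comparisons, and Cd4, Cd8a and Cd8b1 also from the gate comparisons. Summaries used Python 3.11.15 with numpy 2.4.6, pandas 2.3.3 and scipy 1.17.1, and figures matplotlib 3.10.9. The fit was run on simulated sample means with known shifts. These were drawn independently, with no sample that stands apart, so they do not show how the fit behaves with untrained sample 2. Alternatives were scores divided by their SD, the cell mean subtracted, a cut at 0.25, no myeloid-high cells, gates in all sorted cells, samples weighted by cells, the 25% of genes with the lowest SD left out, no replicate block, each sample left out, and shares above 0.5; correlations without myeloid-high cells were added after the data were seen. The members and lists were chosen with earlier results of these data known. Named genes were the 6 members, of the wider list up to 8 called genes or otherwise the 3 with the smallest p, and the 3 genes most like each member.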

Additional observations from a re-analysis of the deposited data

Results flagged for a closer look

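In 12 differences within samples (each member, T marker-positive minus remaining and CD8-gated minus CD4-gated) a sample far from the other 4 was looked for, and chance flags about 1 in 20 groups. Jun in untrained sample 2 stood apart, at -0.352 for T marker-positive minus remaining cells, against 0.078, 0.167 and 0.204 in trained samples and 0.073 in untrained sample 1. Rgs2 in untrained sample 2 stood apart in the same difference, at -0.529, against -0.0036, 0.208 and 0.192 in trained samples and 0.174 in untrained sample 1. The same sample held 41 of the 51 myeloid-high cells. Over the other 4 samples the difference was 0.130 for Jun and 0.142 for Rgs2.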

How the results depend on the processing

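Dusp2 was higher in T marker-positive cells under every setting run, and Junb under every setting, with the call lost for Junb (0.010) when the cell mean was subtracted. That setting also called 49.4% of genes between the classes in place of 88.8%, and without myeloid-high cells 6 members were called in place of 2. Between the gates 0.823% of genes were called with scores divided by SD, 1.37% with samples weighted by cells, 0.137% without low-SD genes, 0.171% with gates in all sorted cells and 0.720% with no replicate block, against 0.412%. No paired analysis was possible because the labels number the samples 1 to 5 without pairing trained with untrained; without the replicate block the class comparison called 91.1% of genes, with no change for a member. The cause was not tested for any value below. These are limits of scores from 5 samples, 1 of which stands apart, with unknown depth.

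Uncalled member differences that changed sign were the following. With the cell mean subtracted, the class difference was -0.175 for Jun and -0.200 for Rgs2, the training difference of Dusp2 in T marker-positive cells 0.0105 and the training-by-gate difference of Egr1 -0.0277. With the cut at 0.25, the training difference in CD8-gated cells was -0.0038 for Dusp2 and -0.0589 for Rgs2, that of Egr1 in CD4-gated cells -0.0738, the class difference of Rgs2 -0.0383, the gate difference of Jun -0.0171 and the training-by-gate difference of Zfp36 0.145. With shares above 0.5, trained minus untrained was 1.23 points for Egr1 and 6.04 for Jun in T marker-positive cells. With gates in all sorted cells, training in CD4-gated cells gave -0.0953 for Egr1, -0.0731 for Jun, -0.0469 for Zfp36 and -0.0523 for Rgs2, the gate difference of Jun was -0.0865, and training by gate gave 0.134 for Zfp36 and 0.0800 for Rgs2. With samples weighted by cells, values were 0.0176 (Dusp2, training, T marker-positive), -0.0171 (Rgs2, classes) and -0.0025 (Egr1, training by gate). With scores divided by SD, training in T marker-positive cells gave -0.0573 for Egr1, -0.0147 for Junb, 0.0487 for Dusp2 and -0.0156 for Rgs2. There Dusp2 gave -0.0387 in remaining cells and 0.0873 for training by class, Rgs2 -0.176 in CD8-gated and Egr1 -0.0296 in CD4-gated cells, and the classes 0.143 for Egr1 and 0.0134 for Zfp36. Without myeloid-high cells, Dusp2 gave 0.0013 for training in T marker-positive cells, -0.0166 in remaining cells and 0.0179 for training by class; Egr1, Jun and Junb gave 0.0105, 0.0280 and 0.0109 in remaining cells, and Junb -0.00395 for training by class. Egr1 (0.175) and Zfp36 (0.121) were then called higher between the classes.

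Leaving out each sample gave these ranges. The share of genes called for training ran from 0 to 4.96% in T marker-positive cells (0 to 3 members), 0 to 0.410% in remaining cells (0 to 1), 0 to 5.78% in CD8-gated cells (0 to 1), 0 to 3.45% in CD4-gated cells, 0 to 3.12% by class (0 to 4) and 0 to 5.38% by gate. The highest came without untrained sample 1, except in remaining cells, where it came without trained sample 1. Members called between the classes ran from 2 to 5, and the share of genes called between the gates from 0 to 0.549%. Training in T marker-positive cells ran from -0.104 to 0.247 for Egr1, -0.0649 to 0.0740 for Junb, -0.152 to 0.142 for Dusp2 and -0.109 to 0.263 for Rgs2. In remaining cells Dusp2 ran from -0.0976 to 0.102. In CD8-gated cells Egr1 ran from -0.0204 to 0.153 and Rgs2 from -0.243 to 0.331. In CD4-gated cells Egr1 ran from -0.105 to 0.234, Jun from -0.0071 to 0.221 and Zfp36 from -0.0135 to 0.292. Between the classes Egr1 ran from -0.0705 to 0.126, Jun from -0.0087 to 0.130, Zfp36 from -0.124 to 0.0750 and Rgs2 from -0.0418 to 0.142, and between the gates Jun from -0.0694 to 0.0963. Training by class ran from -0.0866 to 0.637 for Egr1, -0.0019 to 0.351 for Junb, -0.254 to 0.240 for Dusp2 and -0.0414 to 0.661 for Rgs2, and training by gate from -0.0808 to 0.0845 for Egr1, -0.151 to 0.107 for Zfp36 and -0.319 to 0.0478 for Rgs2. Shares above 0 (trained minus untrained, points) in T marker-positive cells ran from -22.9 to 1.59 for Egr1, -5.46 to 2.45 for Jun, -6.99 to 6.16 for Junb, -2.93 to 12.2 for Dusp2 and -16.3 to 17.001 for Rgs2, and in remaining cells from -4.98 to 9.72 for Dusp2.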
